A study of Mus musculus with 6 samples.

Results

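The 10 genes described here are C1qa, C1qb, C1qc and C3 of the complement system, and Cx3cr1, P2ry12, Tmem119, Csf1r, Trem2 and Itgam, 6 receptors or surface proteins of microglia. They were taken by symbol from the 55487 rows of a table of raw read counts, and all 10 were found. RNA came from the visual cortex of mice on the B6.CBA/Tar background at postnatal day 28. By its name the line is altered in a UTR of Mmp9, which encodes a secreted metalloproteinase acting on extracellular matrix. There were 3 genotypes with 2 libraries each: homozygous mutants (UTRmut, 2 mutant alleles), heterozygotes (het, 1 mutant allele) and wild type (WT, 0 mutant alleles). In each genotype replicate 1 was the female and replicate 2 the male; the labels name no other allele and no treatment. Whether a library came from 1 animal or from a pool is not given in the sources used here, so the tests measure only the spread between these libraries, part of which may be technical. Total counts were 10916813 and 11966579 in UTRmut, 9500090 and 10598963 in het, and 10061225 and 11622460 in WT. Genes of the mitochondrial chromosome took 7.34% and 9.66% of counts in UTRmut, 6.72% and 6.02% in het, and 5.91% and 6.26% in WT. Both UTRmut libraries were thus highest, and the part of this in the levels of the 10 genes was not tested. Mmp9 itself had 8 and 16 counts in UTRmut, 9 and 9 in het, and 4 and 9 in WT, and its transcript level gives no check of the genotype labels.

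Microglia are the resident macrophages of the brain. They survey the tissue with motile processes, are kept alive by signals through the receptor Csf1r, and remove cell debris and synapses, in the visual system among other places. C1q, the recognition protein of the classical complement pathway, is built from the chains encoded by C1qa, C1qb and C1qc and is made in the brain mainly by microglia. It can mark synapses, after which fragments of C3 are deposited and read by complement receptor 3, whose alpha chain is Itgam. In bulk tissue, fewer microglia and less RNA per microglial cell cannot be told apart.

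The 3 genes for the chains of C1q lie side by side within 18.675 kb of chromosome 4 (GRCm38). C1qb spans 136880129 to 136886187, C1qc 136889804 to 136893065 and C1qa 136895917 to 136898803, all on the minus strand. PU.1, the product of Spi1, is a transcription factor that microglia need and that binds purine-rich DNA. The letters AGGAAGT of its preferred site were searched on both strands, with no other motif, in the 300 bases from 250 before to 50 after each RefSeq transcription start (GRCm38.p6). Of the 10 genes 7 had an entry in the promoter table. C1qa, Tmem119 and Csf1r did not. The letters were found in C1qb, C1qc and P2ry12 and not in C3, Cx3cr1, Trem2 or Itgam, against 10.7% of all 27025 genes with a promoter. The 3 stretches are shown because they place the same letters before the start of 2 neighbouring C1q genes and of a receptor gene. Each runs 5′ to 3′ on the strand of its gene, with the 7 matching letters in capitals, which read ACTTCCT where the match was on the opposite strand.
C1qb, chr4:136886236-136886264, minus strand, match 53 bases before the start: caggacctgaaACTTCCTgagggcagcag
C1qc, chr4:136893092-136893120, minus strand, match 195 bases before the start: ggacggcagacACTTCCTcattttggcac
P2ry12, chr3:59263020-59263048, minus strand, match 52 bases before the start: agctaacaagaAGGAAGTtccccagtgac
Distances to the start are counted from the RefSeq starts, which differ from the gene ends in the GENCODE spans of this text. A match of letters is a description and not a measured binding site. Spi1 was scarce, at 0.839 and 2.08 CPM in UTRmut, 1.97 and 1.49 in het, and 0.770 and 1.12 in WT. CPM are read counts put on a common library size, here with edgeR's TMM factors (trimmed mean of M-values).

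Microglial transcripts were present in all 6 libraries, and C3 was close to absent. Among the 9 genes tested, the highest library was 1.12 times the lowest for Cx3cr1 and 2.13 times for C1qb, with the others between. The summed level of the 10 genes was 220 and 216 CPM in UTRmut, 220 and 222 in het, and 193 and 235 in WT. The lowest and the highest library were thus the WT female and the WT male, and both mutant genotypes lay between them. Per kilobase of annotated exon, which allows genes to be set beside each other, C1qa stood highest with 26.6 ± 2.56 CPM per kb (SD, n = 6 libraries). Csf1r followed with 13.4 ± 0.772, P2ry12 with 11.8 ± 1.09, C1qb with 11.0 ± 2.86 and C1qc with 9.37 ± 1.43 CPM per kb. The ranges of neighbours in this order overlapped from Csf1r down to Cx3cr1, while C1qa lay above Csf1r in every library. Within each of the 6 libraries Csf1r also lay above P2ry12, and C1qc above Tmem119. P2ry12 against C1qb, C1qb against C1qc and Tmem119 against Cx3cr1 changed places between libraries. Tmem119 had 6.89 ± 1.24 and Cx3cr1 6.59 ± 0.277 CPM per kb. Trem2 had 1.05 ± 0.152 and Itgam 0.397 ± 0.0761 CPM per kb, and neither range met that of its neighbour above. Exon lengths were the union of all exons in the GENCODE models, so a gene with long, rarely used exons gets too low a value on this scale.

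**Figure D1:**
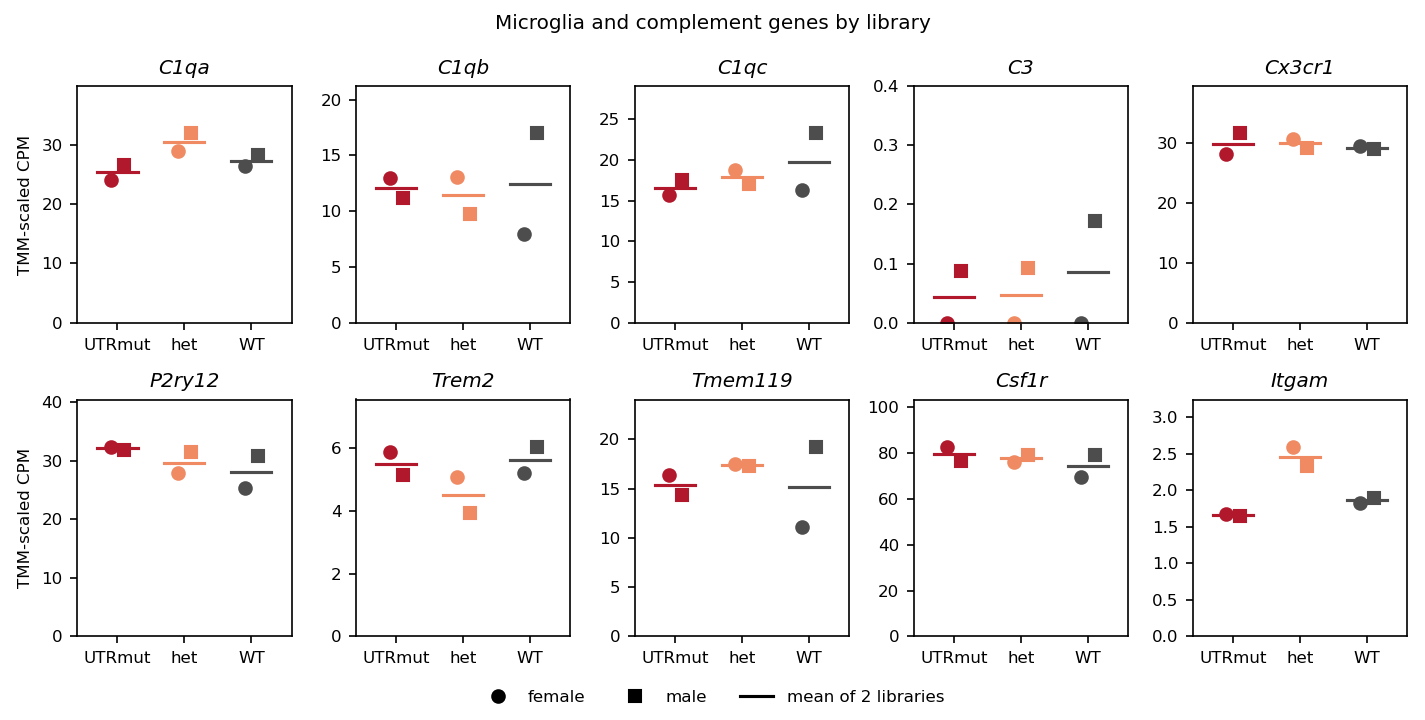
TMM-scaled CPM (vertical axes, each from 0) of the 10 genes in UTRmut, het and WT libraries, with circles for females, squares for males and a line at the mean of the 2 libraries. C1qb, C1qc and Tmem119 show their widest spread within WT, and C3 stays under 0.4 CPM throughout.

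C1qa, the gene of the A chain, passed in no comparison between genotypes. It had 24.0 and 26.6 CPM in UTRmut, 28.9 and 31.9 in het, and 26.4 and 28.2 in WT. The het libraries lay above all others, and UTRmut and WT overlapped. UTRmut against WT gave a log2 fold of -0.11 (SE 0.13, 95% interval -0.38 to 0.16), and het against WT one of 0.16 (SE 0.13, interval -0.12 to 0.43). For UTRmut against het it was -0.26 (SE 0.13, interval -0.54 to 0.01). With an unadjusted p of 0.0564, this last one came closest to the threshold among all genotype comparisons of the 10 genes, and its adjusted p was 0.9999 (edgeR, Benjamini-Hochberg over all genes). UTRmut against WT was -0.18 without the UTRmut male and -0.04 without the UTRmut female library, and het against WT was 0.08 without the het male library. UTRmut against het ranged from -0.34 to -0.18 when each library was left out in turn.

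C1qb, the gene of the B chain, varied more within WT than between genotypes. It had 12.96 and 11.2 CPM in UTRmut, 13.1 and 9.79 in het, and 7.99 and 17.0 in WT. The 4 libraries with a mutant allele all lay between the WT female, which was lowest, and the WT male, which was highest. In UTRmut against WT its log2 fold was -0.06 (SE 0.32, interval -0.81 to 0.69), and in het against WT -0.14 (SE 0.33, interval -0.90 to 0.62). Without the WT male library these values were 0.60 and 0.52, and neither passed. The sign also turned without the UTRmut male (0.05, UTRmut against WT) and without the het male library (0.06, het against WT).

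C1qc, the gene of the C chain, followed the same order of libraries within WT. Its levels were 15.7 and 17.5 CPM in UTRmut, 18.8 and 17.1 in het, and 16.3 and 23.3 in WT. The WT male stood apart from the other 5 libraries, which lay within 15.7 to 18.8 CPM. Its log2 fold was -0.25 (SE 0.17, interval -0.63 to 0.12) in UTRmut against WT and -0.15 (SE 0.17, interval -0.52 to 0.23) in het against WT. Without the WT male library they were 0.04 and 0.14.

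Since the 3 chains join in fixed proportion in the C1q protein, the split of the counts over their genes was compared as well. The counts of the 3 genes summed to 565 and 637 in UTRmut, 585 and 630 in het, and 526 and 794 in WT. C1qb made up 24.6% and 20.3% of them in UTRmut, 21.5% and 16.7% in het, and 15.8% and 24.8% in WT. The 95% exact binomial (Clopper-Pearson) intervals of the 2 WT libraries, 12.8% to 19.2% in the female and 21.8% to 28.0% in the male, did not meet. This compares 2 libraries only, and the reads are not independent molecules. Averaged by genotype, the C1qb share was 22.4% ± 3.08 in UTRmut, 19.1% ± 3.44 in het and 20.3% ± 6.39 in WT (SD, n = 2 each). The genotype means thus differed by less than the WT replicates did. C1qa made up 45.7% and 48.0% of the counts in UTRmut, 47.5% and 54.3% in het, and 52.1% and 41.2% in WT. C1qc was the steadiest, at 29.7% and 31.7% in UTRmut, 30.9% and 29.0% in het, and 32.1% and 34.0% in WT. Per kilobase of exon, C1qb stood at 0.515 and 0.403 of C1qa in UTRmut, 0.433 and 0.293 in het, and 0.290 and 0.576 in WT. Intervals cover counting error only.

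**Figure D2:**
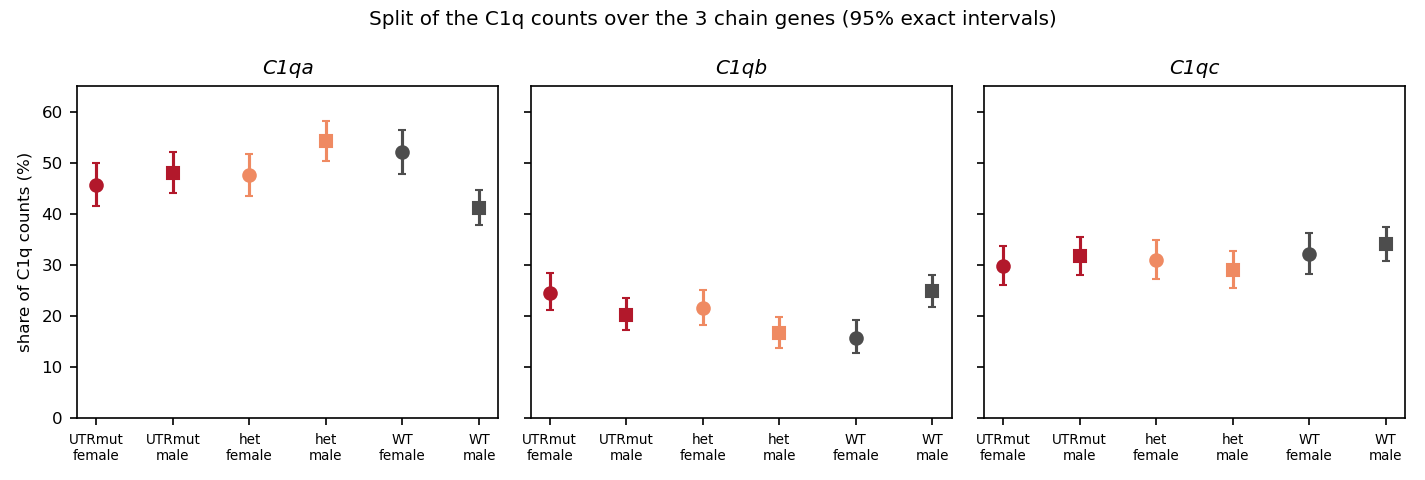
Share of the summed C1q counts (%, vertical axis) that fell on C1qa, C1qb and C1qc in each library, with 95% exact binomial intervals, UTRmut libraries at the left and WT at the right. The C1qb share was 15.8% in the WT female and 24.8% in the WT male, and the C1qc share stayed between 29.0% and 34.0%.

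C3, the central component on which the complement pathways converge, was at the limit of detection (chromosome 17, 57203970 to 57228136, minus strand). It had 0 and 1 counts in UTRmut, 0 and 1 in het, and 0 and 2 in WT. A count of 0 allowed up to 3 counts, or 0.280 CPM in the UTRmut female, 0.312 in the het female and 0.289 in the WT female. The summed counts of a genotype allowed at most 0.251 CPM in UTRmut, 0.274 in het and 0.328 in WT (upper end of the 95% exact Poisson interval). C3 did not pass the filter on low counts, and no fold is given because all groups were under that floor.

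Itgam encodes CD11b, the alpha chain of complement receptor 3, which binds C3 fragments (chromosome 7, 128062640 to 128118491, plus strand). It was the scarcest of the 9 genes tested, with 18 and 19 counts in UTRmut, 25 and 25 in het, and 19 and 22 in WT. Scaled, it had 1.68 and 1.65 CPM in UTRmut, 2.60 and 2.33 in het, and 1.83 and 1.90 in WT. The 3 genotypes did not overlap, with het highest and UTRmut lowest, but at this depth the intervals were wide. UTRmut against WT gave a log2 fold of -0.16 (SE 0.38, interval -0.97 to 0.65). Het against WT gave 0.40 (SE 0.36, interval -0.38 to 1.18), and UTRmut against het -0.56 (SE 0.37, interval -1.35 to 0.23). None passed. Itgb2, the beta chain of the same receptor, had 2.52 and 1.74 CPM in UTRmut, 3.22 and 2.42 in het, and 2.21 and 2.67 in WT.

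Csf1r, the receptor of the growth factors Csf1 and Il34, had the most counts of the 10 genes and the narrowest intervals (chromosome 18, 61100598 to 61132149, plus strand). Its levels were 82.6 and 76.4 CPM in UTRmut, 76.0 and 79.1 in het, and 69.4 and 79.1 in WT. The WT female was lowest and the other 5 libraries lay close together. Log2 folds were 0.10 (SE 0.10, interval -0.12 to 0.31) in UTRmut against WT and 0.06 (SE 0.10, interval -0.15 to 0.28) in het against WT. Without the WT female library they were 0.005 and -0.03, and without the WT male library 0.20 and 0.16. Of its ligands, Il34 had 42.2 and 43.6 CPM in UTRmut, 41.0 and 40.3 in het, and 38.6 and 40.6 in WT. Csf1 had log2 folds of -0.22 (SE 0.18) in UTRmut against WT and -0.06 (SE 0.18) in het against WT.

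Cx3cr1, the receptor through which microglia sense the neuronal chemokine fractalkine, was the steadiest of the 10 genes (chromosome 9, 119901616 to 120069879, minus strand). It had 28.2 and 31.6 CPM in UTRmut, 30.7 and 29.2 in het, and 29.4 and 29.0 in WT. The highest library was 1.12 times the lowest, and all genotypes overlapped. UTRmut against WT and het against WT each gave a log2 fold of 0.04 (SE 0.12, interval -0.22 to 0.30). Without the UTRmut male library the value for UTRmut against WT was -0.05. Its ligand gene Cx3cl1 had 827 and 779 CPM in UTRmut, 782 and 714 in het, and 672 and 867 in WT, with the WT libraries again at both ends.

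P2ry12, a receptor for ADP that steers microglial processes towards damage, lay higher in UTRmut than in WT in both replicates (chromosome 3, 59216272 to 59262871, minus strand). It had 32.3 and 31.8 CPM in UTRmut, 27.8 and 31.5 in het, and 25.3 and 30.9 in WT. The UTRmut libraries did not overlap those of WT or het, but the gap to the WT male was small. The log2 fold of 0.19 (SE 0.13, interval -0.09 to 0.47) did not pass, and it was 0.05 without the WT female and 0.35 without the WT male library. Nor did that of 0.08 (SE 0.13, interval -0.21 to 0.36) for het against WT pass. Het against WT was -0.06 without the WT female, 0.23 without the WT male, 0.17 without the het female and -0.02 without the het male library.

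Tmem119, a transmembrane protein used to tell microglia from other macrophages, again differed most between the WT replicates (chromosome 5, 113793729 to 113800516, minus strand). Its levels were 16.4 and 14.3 CPM in UTRmut, 17.4 and 17.2 in het, and 11.1 and 19.2 in WT. The 4 libraries with a mutant allele lay between the WT female and the WT male. Log2 folds were 0.01 (SE 0.22, interval -0.47 to 0.50) in UTRmut against WT and 0.19 (SE 0.22, interval -0.30 to 0.68) in het against WT. Without the WT female library they were -0.33 and -0.15, and UTRmut against WT was -0.09 without the UTRmut female library.

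Trem2, a lipid-sensing receptor, signals through the adaptor Tyrobp (chromosome 17, 48346401 to 48354147, plus strand). It had 5.87 and 5.13 CPM in UTRmut, 5.09 and 3.92 in het, and 5.20 and 6.03 in WT. The het libraries lay below the other 4, by little in the female. UTRmut against WT gave a log2 fold of -0.03 (SE 0.25, interval -0.58 to 0.51). Het against WT gave -0.32 (SE 0.26, interval -0.89 to 0.24), and UTRmut against het 0.29 (SE 0.26, interval -0.27 to 0.85). Tyrobp had 6.34 and 5.82 CPM in UTRmut, 6.75 and 6.34 in het, and 6.64 and 6.21 in WT. The het libraries did not lie below the others for the adaptor. UTRmut against WT for Trem2 was 0.09 without the WT male and 0.06 without the UTRmut male library. Het against WT was -0.52 without the het female and -0.15 without the het male, and UTRmut against het was 0.49 and 0.11.

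Of the 9 genes that passed the filter, 0 rose and 0 fell in any of the 3 comparisons between genotypes (edgeR quasi-likelihood test, Benjamini-Hochberg adjusted p under 0.05). None reached an unadjusted p under 0.05 in the main edgeR fit, and DESeq2 called 0 of them. Among all 16119 genes tested, 0.00620% passed in UTRmut against WT, 0.0124% in het against WT and 0.0124% in UTRmut against het, so calls were rare everywhere. The median log2 fold of the 9 genes was -0.03 in UTRmut against WT, with 4 positive, beside -0.01 and 47.9% positive over all genes. In het against WT it was 0.06, with 6 positive, beside 0.00 and 48.9% positive over all genes. The groups did not overlap for 2 of the 9 genes in UTRmut against WT (P2ry12 above, Itgam below). Of all genes 28.7% did not overlap there, 14.1% above and 14.6% below. In het against WT they did not overlap for 3 (C1qa and Itgam above, Trem2 below), beside 27.0% of all genes, 13.4% above and 13.6% below. In UTRmut against het this held for 5 (P2ry12 and Trem2 above, C1qa, Tmem119 and Itgam below), beside 34.3% of all genes, 16.4% above and 17.9% below. These 9 genes share the same libraries and are not replicates of each other.

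**Figure D3:**
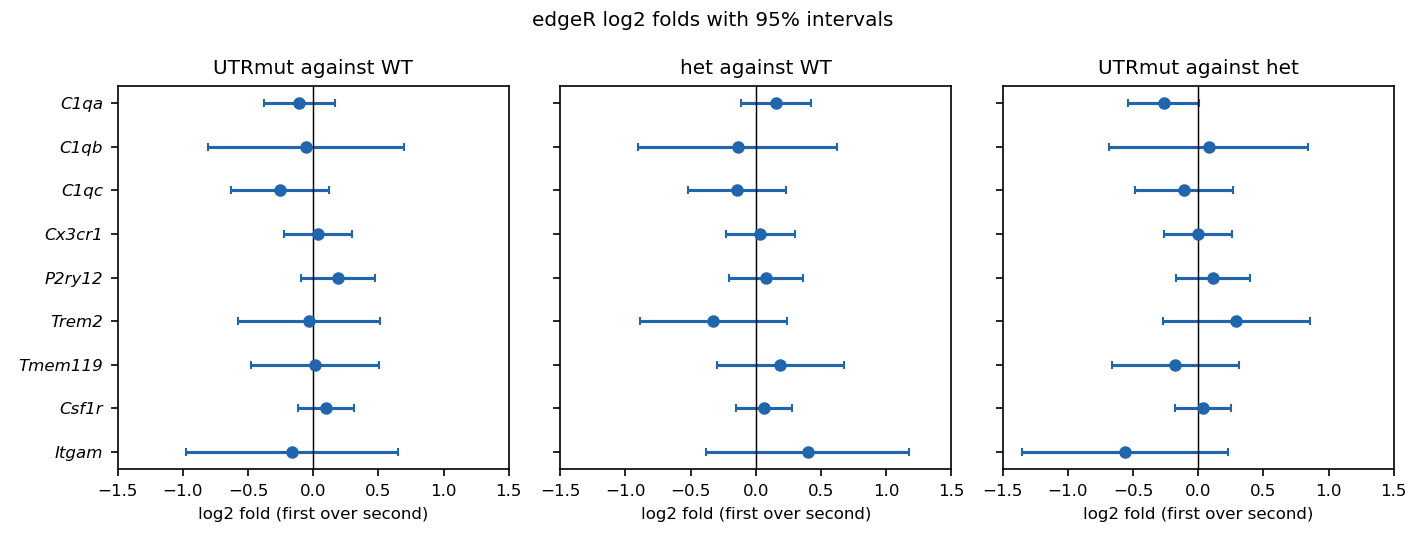
Log2 folds (horizontal axis) of the 9 tested genes with 95% intervals in the 3 comparisons between genotypes. Every interval holds 0, the narrowest belong to Csf1r and the widest to C1qb and Itgam.

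The intervals show what these libraries could and could not have seen. For Csf1r, Cx3cr1, P2ry12 and C1qa the whole interval of UTRmut against WT lay within 0.5 of 0 on the log2 scale. For C1qb and Itgam it ran from -0.81 to 0.69 and from -0.97 to 0.65, so changes of such sizes were not excluded for these genes. A p that misses the threshold does not show that the levels were the same.

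Per mutant allele, 0 of the 9 genes passed (edgeR, 0 of all genes passed, and none of the 9 had an unadjusted p under 0.05). C1qc had -0.13 per allele (SE 0.08, interval -0.30 to 0.05) and P2ry12 0.09 (SE 0.06, interval -0.04 to 0.23), the lowest and highest of the 9. C1qc was -0.23 without the WT female and -0.0005 without the WT male library, and P2ry12 was 0.04 and 0.16. These comparisons share the same 6 libraries with those above. Between females and males, with genotype in the model, 0 of the 9 passed, beside 0.0372% of all genes. The log2 folds of females against males ranged over -0.19 (SE 0.18) for Tmem119 to 0.11 (SE 0.21) for Trem2. Of the 9, 7 were negative and none had an unadjusted p under 0.05, while 49.6% of all genes were positive. The Tmem119 value was 0.10 without the WT female library or without the WT male library.

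The levels of C1qb and Tmem119 were lowest in the WT library among females and highest in it among males, but the difference between the sexes did not pass. C1qb had 12.96 CPM in the UTRmut, 13.1 in the het and 7.99 in the WT female, and 11.2 in the UTRmut, 9.79 in the het and 17.0 in the WT male. The change per allele in females minus that in males was 0.65 on the log2 scale (SE 0.20, interval 0.22 to 1.07; unadjusted p = 0.00578, adjusted p = 0.147, edgeR, Benjamini-Hochberg). Tmem119 had 16.4 CPM in the UTRmut, 17.4 in the het and 11.1 in the WT female, and 14.3 in the UTRmut, 17.2 in the het and 19.2 in the WT male. Here the difference was 0.48 (SE 0.15, interval 0.16 to 0.79; unadjusted p = 0.00498, adjusted p = 0.136, edgeR). Csf1r had 0.15 (SE 0.08) with an adjusted p of 0.397 (edgeR). Of the 9 genes 0 passed and DESeq2 called 0, and 1.20% of all genes passed in this comparison. An unadjusted p under 0.05 was reached by 2 of the 9, beside 13.6% of all genes. Each combination of sex and genotype was 1 library, so sex, animal and library cannot be told apart. Markers of other cells passed in the same comparison, all positive, as were 144 of all 194 genes passing. They were Aqp4 of astrocytes, Rgs5 of mural cells, the globins Hbb-bs and Hbb-bt, and the collagen Col1a2. In their lists 5 of 8 astrocyte, 6 of 8 endothelial and mural, 5 of 5 red blood cell and 8 of 8 meningeal genes were positive. Of all genes 48.9% were positive. The part of these markers in the C1qb and Tmem119 values was not tested. Without the WT male library the C1qb difference was 0.14, and without the WT female library that of Tmem119 was 0.13. Leaving out the WT female gave 0.31 for C1qb, leaving out the UTRmut female 1.03, and leaving out the UTRmut male 1.12. For Tmem119 the value was 0.87 without the UTRmut female library. Without the het male library the values were 0.64 for C1qb and 0.49 for Tmem119.

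**Figure D4:**
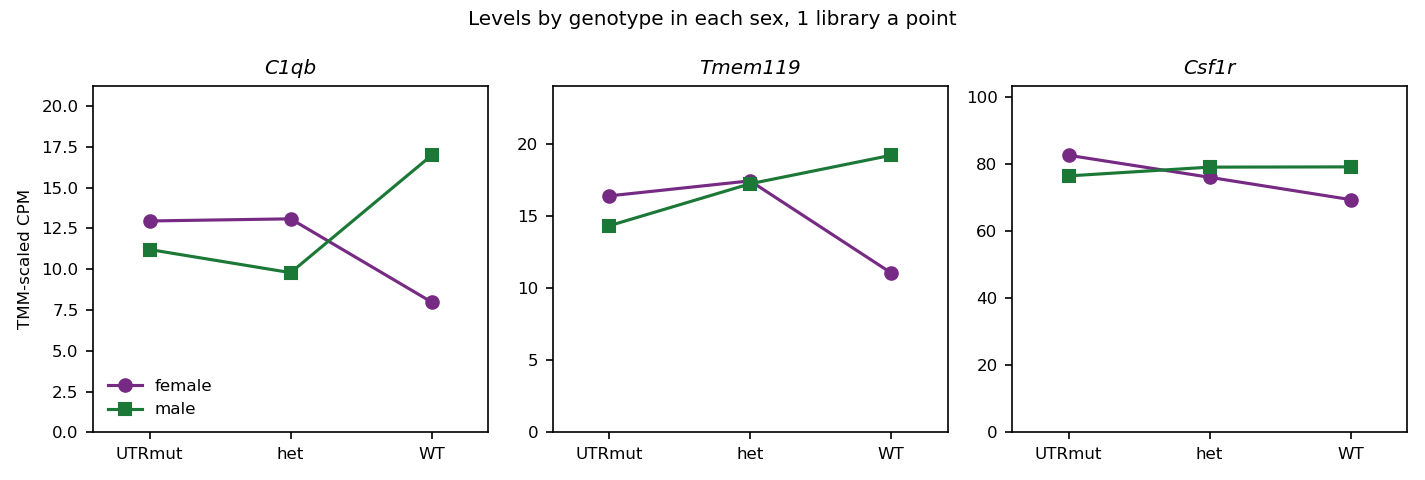
TMM-scaled CPM (vertical axes, from 0) of C1qb, Tmem119 and Csf1r by genotype in females (circles) and males (squares), each point 1 library. In C1qb and Tmem119 the sexes lie furthest apart in WT, where the female is lowest and the male highest.

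The WT female library was the lowest of the 6 in the summed homeostatic microglia and astrocyte genes as well. The other homeostatic microglia genes, a list of 41 with 39 tested, summed to 433 and 406 CPM in UTRmut, 420 and 407 in het, and 370 and 433 in WT. The 8 astrocyte markers summed to 1798 and 1893 CPM in UTRmut, 1778 and 1886 in het, and 1605 and 1774 in WT. The 8 neuron markers summed to 5738 and 5770 CPM in UTRmut, 5344 and 5273 in het, and 5344 and 5715 in WT. Gene models of the GENCODE class TEC, which still await experimental evidence, took 0.751% of counts in the WT female and 0.452% to 0.680% in the other 5 libraries. The part of these in the low C1qb and Tmem119 of that library was not tested.

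None of the other genes on a complement list passed between genotypes, and several were scarce. The list also holds neuronal pentraxins and genes of the Csmd and Sez6 families. Of 46 symbols 45 were in the table, all but C5, whose mouse symbol Hc was listed as well and was found. The filter was passed by 27, and 0 rose and 0 fell in any genotype comparison. The median log2 fold of the 27 was -0.06 in UTRmut against WT, with 10 of 27 positive beside 47.9% of all genes. In het against WT it was 0.11, with 17 of 27 positive beside 48.9%. In UTRmut against het it was -0.14, with 5 of 27 positive beside 49.7%. Ends of a list are given here and below among its genes with a mean of at least 1 CPM. In UTRmut against WT they were Nptx2, a neuronal pentraxin, at 0.52 (SE 0.32), Vtn, vitronectin, at 0.34 (SE 0.17), Cd46 at -0.38 (SE 0.27) and the terminal component C7 at -0.47 (SE 0.49). In het against WT they were Serping1, the inhibitor of the C1 proteases, at 0.69 (SE 0.35), Vtn at 0.61 (SE 0.17), Sez6l2 at -0.18 (SE 0.10) and Cd46 at -0.21 (SE 0.27). C4b, which acts between C1q and C3, had 7.64 and 12.2 CPM in UTRmut, 13.7 and 9.97 in het, and 9.33 and 7.84 in WT. C6, Cfd and Vsig4 had 0 counts in all 6 libraries, and Cfb had 1 count in all of them together. Clu, clusterin, was the most abundant of the list at 504 and 577 CPM in UTRmut, 529 and 531 in het, and 479 and 501 in WT.

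Of 42 ligands, adaptors and regulators around these receptors, 39 were tested and 0 passed in any genotype comparison. This list shares genes with the others, such as Itgb2, Clu, Tyrobp and Csf1, so the counts and medians of the lists are not independent. The median log2 fold was 0.04 in UTRmut against WT, 0.03 in het against WT and -0.03 in UTRmut against het. Spi1 at 0.63 (SE 0.52) and Nrros at 0.61 (SE 0.30), which anchors latent TGF-beta on microglia, were highest in UTRmut against WT, and Csf1 and Itgb2 at -0.21 (SE 0.37) lowest. In het against WT, Spi1 at 0.85 (SE 0.52) and Plcg2 at 0.46 (SE 0.30), a phospholipase of Trem2 signalling, were highest, and Gas6 at -0.14 (SE 0.10) and Runx1 at -0.27 (SE 0.67) lowest. In the difference between the sexes 1 of these genes passed, the phagocytic receptor Mertk at 0.46 (SE 0.09; adjusted p = 0.0202, edgeR). It had 53.8 CPM in the UTRmut, 42.5 in the het and 39.2 in the WT female, and 43.4 in the UTRmut, 52.7 in the het and 59.5 in the WT male.

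Among the other homeostatic microglia genes 0 of 39 passed in any genotype comparison. Their median log2 fold was -0.01 in UTRmut against het. It was 0.03 in UTRmut against WT and 0.09 in het against WT. Ltc4s, leukotriene C4 synthase, was highest in both, at 0.52 (SE 0.53) and 1.14 (SE 0.50). The second highest were Bin2 at 0.48 (SE 0.34) in UTRmut and Ptprc, the gene of CD45, at 0.70 (SE 0.32) in het. Lag3 at -0.47 (SE 0.47) and Cd14 at -0.40 (SE 0.52) were lowest in UTRmut against WT, and Fcer1g at -0.47 (SE 0.43) and Lag3 at -0.39 (SE 0.47) in het against WT.

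Of 34 listed genes of reactive microglia, 21 passed the filter, and 0 of these passed in any genotype comparison. Genes under the filter, among them Cst7 and Tnf, do not enter the medians. In bulk tissue the cells that made the tested transcripts cannot be told apart, so the medians are not values of microglia alone. The median log2 fold was 0.02 in UTRmut against het, with 12 of 21 positive beside 49.7% of all genes. It was 0.12 in UTRmut against WT and 0.09 in het against WT, with 14 of 21 positive in each. Of all genes 47.9% and 48.9% were positive there. Ifitm3, an interferon-induced gene, was highest in both, at 0.41 (SE 0.36) and 0.89 (SE 0.35), followed by Ifit3 at 0.39 (SE 0.30) in UTRmut and Tlr4 at 0.44 (SE 0.36) in het. Spp1 at -0.40 (SE 0.38) and Csf1 were lowest in UTRmut against WT, and Bst2 at -0.73 (SE 0.48) and Tlr7 at -0.20 (SE 0.36) in het against WT. The cytokine gene Tnf had 0 and 1 counts in UTRmut, 0 and 1 in het, and 1 and 1 in WT. Cst7, a marker of microglia around amyloid plaques, had 1 and 0 counts in UTRmut, 1 and 0 in het, and 0 and 0 in WT.

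**Figure D5:**
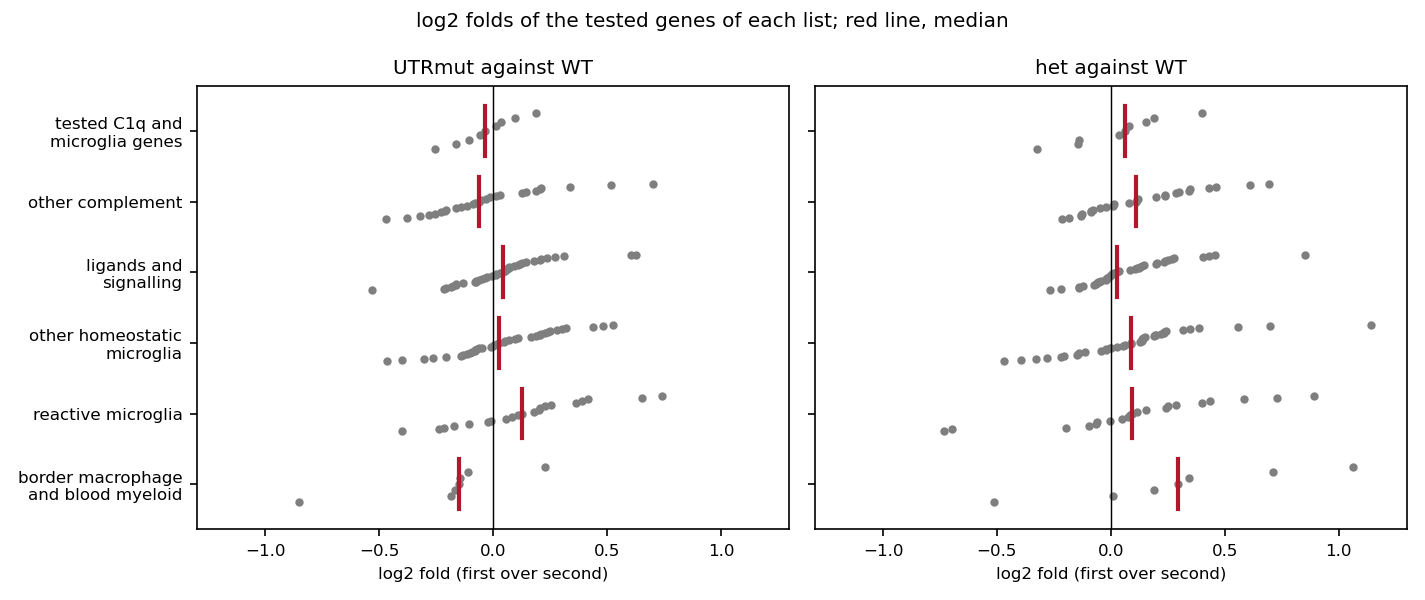
Log2 folds (horizontal axis) of every tested gene in 6 lists for UTRmut against WT and het against WT, with a red line at the median of each list. All medians lie between -0.15 and 0.30, and no gene shown passed the threshold. Some genes belong to several lists.

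Macrophages of the brain borders and blood share several of the 10 genes, so their own markers were set beside them. Of 21 such genes 7 passed the filter and 0 passed in any genotype comparison. Their summed level was 36.6 and 23.1 CPM in UTRmut, 35.7 and 47.5 in het, and 29.1 and 36.7 in WT, with het male highest and UTRmut male lowest. All 21 had at least 1 count in some library, but Pf4 did not exceed 6 counts, Ms4a7 did not exceed 5 and Folr2 did not exceed 4. The median log2 fold was -0.48 in UTRmut against het, with 0 of 7 positive beside 49.7% of all genes. It was -0.15 in UTRmut against WT, with 1 of 7 positive, and 0.30 in het against WT, with 6 of 7 positive. Of all genes 47.9% and 48.9% were positive there. Lyve1 was at 0.23 (SE 0.50) in UTRmut and 1.06 (SE 0.47) in het, F13a1 at 0.71 (SE 0.36) in het, and Cd163 at -0.85 (SE 0.53) in UTRmut and -0.51 (SE 0.52) in het. Cd74, the invariant chain of MHC class II, was at -0.11 (SE 0.45) in UTRmut and 0.01 (SE 0.46) in het, and Mrc1 at -0.18 (SE 0.44) in UTRmut. Mrc1, the mannose receptor of these cells, had 8.58 and 3.30 CPM in UTRmut, 6.13 and 10.3 in het, and 5.87 and 7.50 in WT. The part of these cells in the high Itgam of the het libraries was not tested.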

How the data were processed

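The authors deposited raw counts for Ensembl genes in 1 column per library, neither normalised nor pooled. HTSeq 0.6.0, HISAT2, Trimmomatic 0.39 and GATK 4.2.3.0 are named, beside GRCm38, per the submitters' processing notes, which say nothing of their roles here. The labels name a stranded total RNA kit. The strand setting of the counting is not given in the sources used here. The spans of P2ry12 and Csf1r overlap Med12l and Hmgxb3 on the opposite strand, and the GENCODE model of Cx3cr1 overlaps several neighbours, so reads there could be split or shared. Symbols and positions came from GENCODE M21.

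Of all genes 16119 passed filterByExpr, run by genotype with a minimum count of 10 and a minimum total of 15. Counts were scaled by TMM and tested in edgeR 4.0.16 (R 4.3.3) by the robust quasi-likelihood F test, with Benjamini-Hochberg adjustment over all genes tested and a threshold of 0.05. All 6 libraries entered each fit. SE is the absolute log2 fold over the square root of F, and 95% intervals use the test's total degrees of freedom. The fits were tested on simulated data. Alternatives were DESeq2 1.42.0, RLE size factors, no filter, a replicate block, only the 4 libraries compared, and leaving out each library. A count of 0 allowed up to 3 counts, for counting error only.

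The 10 genes, the lists and the tests were chosen with earlier results of these data known. The naming rule took the 10 genes, Mmp9, any list gene that passed between genotypes, and the 2 highest and 2 lowest log2 folds of each list among genes of at least 1 CPM, against WT. Il34, Cx3cl1, Tyrobp, C4b, Clu, Cfd, Cfb, Tnf and Cst7, the scarce genes given by counts, and the genes passing in the sex difference were added after their values were seen. For lists of other brain cells the summed level is given in place of single genes.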

Additional observations from a re-analysis of the deposited data

How the results depend on the processing

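In the 5 comparisons other than the sex difference, 0 of the 9 tested genes passed in any alternative run. For C1qa in UTRmut against het the unadjusted p was 0.0433 with the replicate block and 0.0439 with the 4 libraries alone (edgeR). Adjusted over all genes, these were 0.99955 and 0.97291. In the sex difference 2 passed without a filter on low counts, and 0 to 2 when each library was left out in turn. These were C1qb and Tmem119, with adjusted p of 0.00427 and 0.0359 without a filter (edgeR; range over 9 alternatives 0.00159 to 0.99997 for C1qb and 0.0343 to 0.99997 for Tmem119). Their differences were 0.14 to 1.12 and 0.13 to 0.87 with a library left out. The number of all genes passing in this comparison also moved in the same runs, as given below. The log2 folds of all 9 tested genes against WT, and of those the text gives in the other comparisons, were recomputed under each alternative. Of these 296 values 19 turned sign, all on leaving out 1 library, and the cause was not tested. Many of the 296 rest on the same libraries for that fold and could hardly turn. C1qa in UTRmut against WT, for example, was -0.1056 without the het female and -0.1056 without the het male library. The 296 values are thus no measure of how stable the folds were. Leaving out each library, the ranges in UTRmut against WT were -0.49 to 0.60 for C1qb, -0.49 to 0.0369 for C1qc, -0.0483 to 0.11 for Cx3cr1, -0.14 to 0.0859 for Trem2 and -0.33 to 0.48 for Tmem119. In het against WT they were -0.58 to 0.52 for C1qb, -0.38 to 0.14 for C1qc, -0.0589 to 0.23 for P2ry12, -0.15 to 0.65 for Tmem119 and -0.0329 to 0.16 for Csf1r. In females against males they were -0.38 to 0.10 for Tmem119 and -0.0119 to 0.28 for Trem2.

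Over all genes the number passing moved more. With DESeq2, no filter and the 4 libraries alone it was 8, 27 and 3 in UTRmut against WT (1 in the reported fit) and 7, 28 and 10 in UTRmut against het (2). In het against WT (2) it was 13 without a filter and 1 with the 4 libraries alone. With DESeq2 and without a filter it was 4 and 19 per allele (0), 10 and 92 for females against males (6), and 52 and 600 for the sex difference (194). Leaving out a library gave 0 to 103 in UTRmut against WT and 1 to 30 in het against WT, in both cases the most without WT replicate 2. It gave 0 to 10 in UTRmut against het, 0 to 36 per allele, 5 to 197 for females against males and 24 to 736 for the sex difference.

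The replicate number separates females from males, and whether it also pairs libraries cannot be told here. For deviations from the genotype means, same-numbered libraries correlated at 0.080 between UTRmut and WT. The values were 0.295 between het and WT and 0.196 between UTRmut and het. With 2 libraries a genotype the deviations mirror each other, so both replicates give the same value, and sex and pairing share the replicate number. With the replicate block 4 genes passed in UTRmut against WT, 3 in het against WT, 5 in UTRmut against het and 0 per allele, none of them among the 10 genes. Depth limited C3, Itgam and Trem2 most, which had 4, 128 and 337 counts over all libraries.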

Other observations

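Genes outside the 10 were ranked by the likeness of their profile over the 6 libraries to the summed level of C1qa, C1qb and C1qc. Tmem119, Csf1r and the others of the 10 were left out and could not appear. Among 11518 other genes with a mean of at least 5 CPM, the smallest root mean square differences between centred and scaled log2 CPM were those of Exosc5 (0.151), Rchy1 (0.219), Lyrm1 (0.222), Col4a1 (0.224), Zfand3 (0.234), Rubcn (0.234), Unc5b (0.241), Igsf21 (0.262), Ogfod2 (0.270) and Rfx4 (0.272). None of the genes from Exosc5 to Rfx4 belonged to the microglia, complement or signalling lists used here, whose nearest ranked member, Adgrg1, ranked 119. Exosc5, a subunit of the RNA exosome, had 6.34 and 7.12 CPM in UTRmut, 7.69 and 7.46 in het, and 6.35 and 9.31 in WT. Col4a1, a collagen chain of vascular basement membrane, had 38.7 and 42.1 CPM in UTRmut, 46.2 and 42.6 in het, and 39.4 and 50.2 in WT. These likenesses rest on 6 libraries and carry no test.

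Among other cell type markers, the 6 red blood cell genes summed to 150 and 96.9 CPM in UTRmut, 169 and 176 in het, and 179 and 233 in WT. The 8 meningeal genes summed to 598 and 329 CPM in UTRmut, 534 and 747 in het, and 359 and 444 in WT. The 6 choroid plexus genes summed to 2.33 and 10.3 CPM in UTRmut, 4.15 and 4.94 in het, and 3.46 and 49.5 in WT. The WT male library, which had the highest C1qb, C1qc and Tmem119, was thus also the highest in red blood cell and choroid plexus genes. Endothelial and mural genes summed to 141 and 117 CPM in UTRmut, 127 and 133 in het, and 124 and 167 in WT. Oligodendrocyte genes summed to 2940 and 3818 CPM in UTRmut, 3546 and 3590 in het, and 3661 and 3637 in WT. The part of these in the levels of the 10 genes was not tested.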
